A study of Mus musculus with 12 samples.

Results

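The genes described here are 36 genes of glycolysis and of the cell's response to low oxygen, chosen by symbol for their roles in glucose uptake, the glycolytic steps, lactate and pyruvate handling, and the HIF pathway. They are 36 of the 55471 gene rows counted by RNA sequencing in Ba/F3 cells, and each was read as 1 Ensembl gene of the mouse genome build mm10 (for Aldoa, ENSMUSG00000030695). Of these, 32 had enough counts to be tested. The counts of Ldhb (0 to 6 per library), Pdk2 (0 to 3), Egln3 (0 to 1) and Eno2 (2 to 16) were too low in every group.

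Ba/F3 is a murine line described as pro-B, kept alive by the cytokine interleukin-3 (IL-3) or by an oncogene that takes over its signal. The 4 SFPQ-ABL1 lines and the 4 BCR-ABL1 lines each carried a leukaemia fusion of the tyrosine kinase ABL1 and were grown without IL-3. In the 4 MSCV lines the retroviral vector was empty, and the medium held IL-3 at 0.5 ng/ml. The labels call the lines of a group biologically independent, so p-values measure the spread between such lines of 1 parental cell line. The fusion and the absence of IL-3 cannot be told apart in a comparison with MSCV, whereas both fusion groups were grown without IL-3.

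Glycolysis splits glucose into pyruvate, which is reduced to lactate and exported or enters the mitochondria through pyruvate dehydrogenase. The transcription factor HIF1A is made all the time and, when oxygen is present, is marked by prolyl hydroxylases of the EGLN family and destroyed. When oxygen is low it is stable and binds the DNA core ACGTG or GCGTG near genes for glucose transporters, most glycolytic enzymes, PDK1, BNIP3, VEGFA and P4HA1. Growth factor and kinase signalling also act on glucose uptake in blood cells, through PI3K, AKT and MYC.

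Libraries held 59355018 to 80616227 gene counts, so a level of 1 CPM, the count of a gene relative to its library's size, rested on 59.4 to 80.6 counts. CPM here are scaled by TMM factors, which ran between 0.9599 and 1.046. Of 19 genes of the B lineage and of Ba/F3 identity, 7 passed 1 CPM in any line, among them Il3ra, Csf2rb, Ptprc, Cd79a and Cd79b. The early B-cell genes Pax5, Ebf1, Rag1, Rag2 and Il7r stayed at or below 0.108 CPM in every line. Of the granulocyte and monocyte, mast cell and basophil, and erythroid markers, 5 of 7, 4 of 5 and 5 of 5 passed 1 CPM in any line. Prtn3, Gata2 and Gata1, 1 from each list, were at 29.8 CPM or more in all lines. Over all lines, Hba-a1 ranged over 68.2 to 980.4 CPM, Klf1 over 12.3 to 73.0 and Epor over 13.5 to 39.2. Lyz2 ranged over 10.8 to 39.6 CPM and Mpo over 2.41 to 76.0. Some others of these lists were low, with at most 0.0135 CPM for Ly6g, 0.798 for Csf1r, 0.0411 for Mcpt8 and 6.58 for Hbb-bt. None of 4 fibroblast markers passed 1 CPM. Abl1, which is part of both fusions, ranged over 104 to 134 CPM in SFPQ-ABL1 lines, 108 to 124 CPM in BCR-ABL1 lines and 81.6 to 106 CPM in MSCV lines. In the same order, Bcr ranged over 21.2 to 22.8, 17.2 to 19.98 and 20.7 to 23.0 CPM. Sfpq ranged over 315 to 426, 212 to 324 and 255 to 323 CPM. Bcr was thus not higher in BCR-ABL1 lines, and the presence of the fusions was not tested.

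BCR-ABL1 lines differed from MSCV lines in 9 of the 32 genes tested. Those higher in BCR-ABL1 lines were the glucose transporter Slc2a3, the hexokinase Hk3, the phosphofructokinase Pfkp, the lactate carrier Slc16a1, the pyruvate dehydrogenase kinase Pdk3, the regulator Pfkfb3 and Hif1a itself. Pfkfb4 and Pfkm were lower. This is 28.1% of the genes, a share below the 32.1% of all 17197 genes tested (15.8% higher and 16.3% lower), by edgeR's quasi-likelihood test at a Benjamini-Hochberg adjusted p under 0.05. The median log2 fold change was 0.29 over the 32 genes and -0.01 over all genes. The share depended on the fit: with a term for the line number (a replicate block), 18 of the 32 genes and 6307 of all 17197 were called.

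SFPQ-ABL1 lines differed from MSCV lines in 1 gene, Pdk3, which was higher. Of all genes, 1.79% were called in this comparison (0.814% higher and 0.977% lower). The median log2 fold change of the 32 genes was -0.16, with 9 positive and 23 negative values, and 5 genes had an unadjusted p under 0.05. With the replicate block, 3 of the 32 genes and 726 of all 17197 were called.

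SFPQ-ABL1 lines differed from BCR-ABL1 lines in 9 genes or 28.1%, a share close to the 26.0% of all genes that were called (13.2% higher and 12.8% lower). Pfkfb4 was higher in SFPQ-ABL1 lines. Slc2a3, Hk3, Aldoa, Pgk1, Pkm, Slc16a1, Pfkfb3 and P4ha1 were lower. The median log2 fold change was -0.45, beside 0.01 over all genes, and 24 of the 32 values were negative. Here too the share depended on the fit: with the replicate block, 20 of the 32 genes and 5336 of all 17197 were called. Both comparisons with BCR-ABL1 share the same 4 BCR-ABL1 lines, and both comparisons with MSCV share the MSCV lines. In a test against a fold change of 1.5, only Hk3 was called, in both comparisons that include BCR-ABL1. In these bulk samples, fewer cells of a type and less RNA per cell cannot be told apart.

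**Figure D1:**
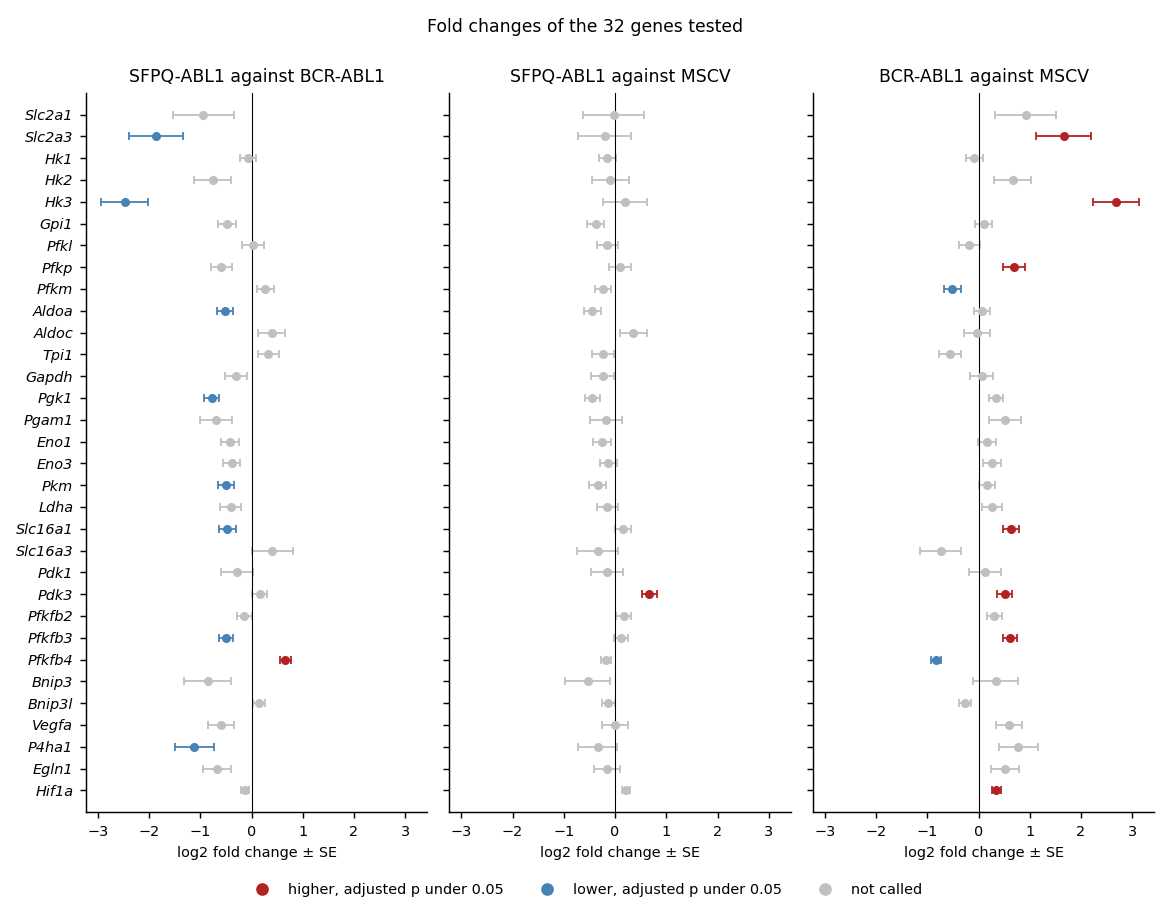
Log2 fold change with its standard error for each of the 32 genes tested, in SFPQ-ABL1 against BCR-ABL1, SFPQ-ABL1 against MSCV and BCR-ABL1 against MSCV, with called genes in red (higher) or blue (lower) and the others in grey. Hk3 lies farthest from 0, at -2.48 against BCR-ABL1 and, for BCR-ABL1 against MSCV, at 2.68.

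The lines of a group differed widely from each other in many of these genes, and the same line number stood apart in all 3 groups. In 18 of the 32 genes, line 1 was the lowest line of the SFPQ-ABL1, the BCR-ABL1 and the MSCV group alike. That is 56.2% of these genes, where 785 of all 17197 genes (4.56%) did so. Lines 2, 3 and 4 were the lowest in every group for 0, 0 and 1 of the 32 genes. Line 2 was the highest in every group for 6 of the 32 genes, and for 3.44% of all genes. The labels do not say that lines with the same number share a culture, a day or a batch.

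The widest margins were those of genes that hypoxia is known to induce, though other such genes lacked the pattern. Slc2a1, the basal glucose transporter GLUT1, had 47.9, 272, 162 and 180.1 CPM in SFPQ-ABL1 lines 1 to 4. It had 70.3, 431, 371 and 403 CPM in BCR-ABL1 lines 1 to 4, and 48.5, 224, 236 and 166 CPM in MSCV lines 1 to 4. Line 1 thus lay below every line 2, 3 or 4 of any group, and lines 2 to 4 averaged 4.17-fold over line 1 in the SFPQ-ABL1 group, 5.70-fold in the BCR-ABL1 group and 4.26-fold in the MSCV group (ratio of geometric means).

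Other genes with this pattern, named here after their values were seen, were Bnip3, a mitophagy receptor, and Hk2, the hexokinase bound to mitochondria. For Bnip3 lines 2 to 4 averaged 4.12-fold, 1.97-fold and 3.05-fold over line 1 in the SFPQ-ABL1, BCR-ABL1 and MSCV groups. For Hk2 the same ratios were 2.04, 2.70 and 2.38. P4ha1, a collagen prolyl hydroxylase subunit, had ratios of 3.16, 2.30 and 1.87 in the same order of groups, and Pdk1 had 2.61, 1.58 and 1.64. Egln1, the oxygen sensor that marks HIF1A, had 1.99, 1.82 and 1.69, and Slc2a3, the transporter GLUT3, had 4.95, 2.72 and 1.96. The pattern also held, with ratios between 1.05 and 2.21, for Hk1, Gpi1, Pfkl, Pfkp, Aldoa, Tpi1, Pgk1, Pgam1, Eno1, Pkm and Ldha.

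It did not hold for the other 14 genes tested. Hif1a differed little between line 1 and the mean of lines 2 to 4, by 0.07 in SFPQ-ABL1, -0.17 in BCR-ABL1 and 0.01 in MSCV lines on the log2 scale. Hk3, Slc16a1, Pfkfb2 and Pfkfb3 each had at least 1 group in which line 1 lay above the mean of lines 2 to 4. Vegfa, Bnip3l, Pfkfb4 and Slc16a3, also tied to hypoxia, were among the 14 as well. In the same order of groups, Vegfa differed by -0.81, -0.61 and -0.39 and Bnip3l by -0.16, -0.07 and -0.51. Pfkfb4 differed by -0.20, -0.02 and -0.28, and Slc16a3, at 0.542 to 3.20 CPM, by -0.25, 0.75 and -0.16. The median log2 difference between line 1 and lines 2 to 4 over the 32 genes was -0.57 in SFPQ-ABL1, -0.40 in BCR-ABL1 and -0.33 in MSCV lines, where the median over all genes was -0.01, 0 and -0.01.

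Other genes of the same response showed the pattern too. Among 34 tested genes of a list of other hypoxia response genes, 24 were the lowest in line 1 of every group. Of the 14 tested genes of the pentose phosphate pathway none were, nor any of 14 that bring pyruvate into the mitochondria. Line 1 was so in 1 of 21 other glycolysis and glucose transport genes and in 2 of 18 HIF factors and oxygen sensors. The line 1 libraries held 71359372, 73256723 and 79316348 counts in the SFPQ-ABL1, BCR-ABL1 and MSCV groups, within the range of the other libraries. The summed level of 4 fibroblast markers was 0.255 to 0.478 CPM in line 1 libraries and at most 0.974 CPM in any library. The 5 erythroid markers summed to 429.6 to 1231 CPM in line 1 libraries, beside 181 to 1231 CPM over all libraries. Line 1 was the highest of the SFPQ-ABL1 lines and the lowest of the MSCV lines in this sum. The part of any of these in the line 1 pattern was not tested.

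**Figure D2:**
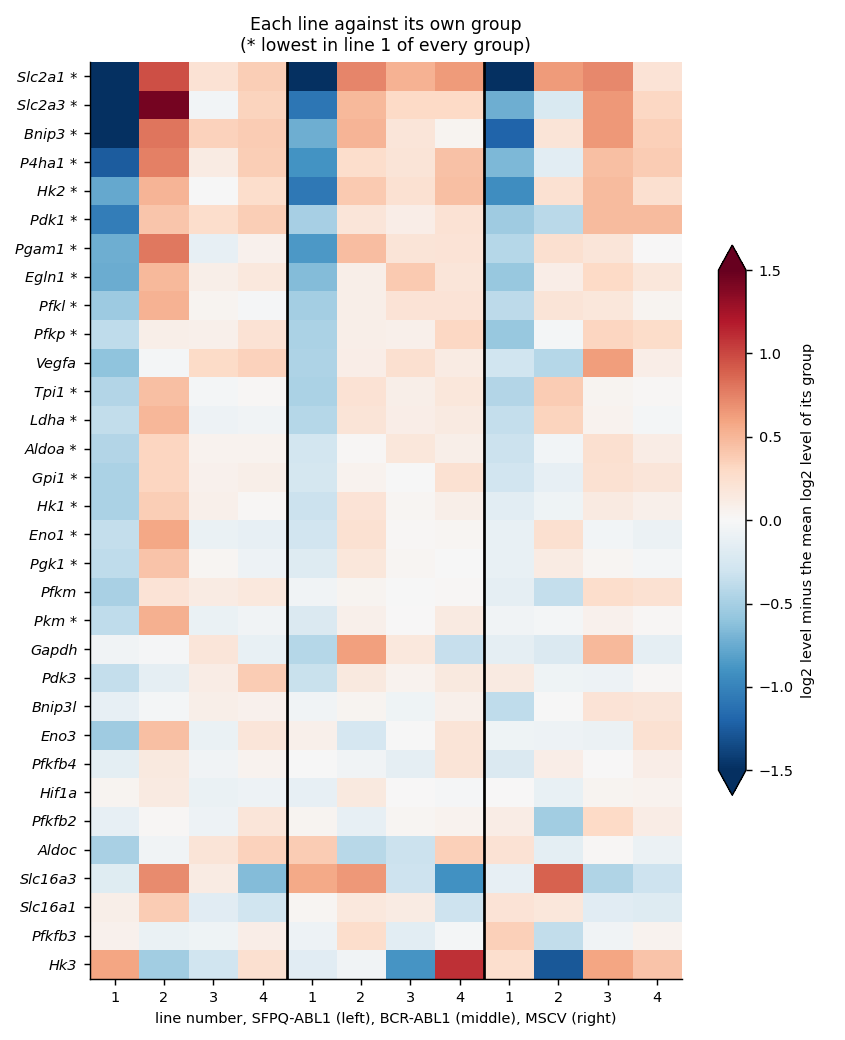
Log2 level of each gene (rows) in each line (columns) minus the mean log2 level of its own group, with SFPQ-ABL1 lines left, BCR-ABL1 lines in the middle and MSCV lines right, and the colour scale ending at 1.5 in both directions. The first column of each block is blue for the upper rows, the 18 genes with an asterisk being the lowest in line 1 of all 3 groups.

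The promoters of Slc2a1, Bnip3 and P4ha1 are shown because these are textbook HIF targets that were lowest in line 1 of every group, by wide margins. Slc2a3, whose line 1 ratios stand above, has no entry in the RefSeq table. Each is a RefSeq window of the build GRCm38.p6 (mm10) that runs over the 250 bases before the gene's start and the first 50 bases after it, written along the gene's strand. Capitals mark the HIF core, ACGTG or GCGTG, on either strand, so that it also reads as CACGT or CACGC.
Slc2a1, chr4:119108495-119108794, plus strand: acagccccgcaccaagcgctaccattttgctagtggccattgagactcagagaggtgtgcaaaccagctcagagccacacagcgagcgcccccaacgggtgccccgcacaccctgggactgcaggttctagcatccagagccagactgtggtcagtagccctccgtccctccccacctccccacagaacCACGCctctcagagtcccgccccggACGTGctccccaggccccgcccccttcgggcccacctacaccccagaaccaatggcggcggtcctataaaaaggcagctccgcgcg
Bnip3, chr7:138909457-138909756, minus strand: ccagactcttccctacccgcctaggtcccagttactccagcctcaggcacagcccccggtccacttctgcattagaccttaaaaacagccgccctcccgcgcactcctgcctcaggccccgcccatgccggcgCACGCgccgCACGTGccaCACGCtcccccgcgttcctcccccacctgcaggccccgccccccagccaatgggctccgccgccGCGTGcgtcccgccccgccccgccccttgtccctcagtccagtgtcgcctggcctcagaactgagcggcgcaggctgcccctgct
P4ha1, chr10:59323046-59323345, plus strand: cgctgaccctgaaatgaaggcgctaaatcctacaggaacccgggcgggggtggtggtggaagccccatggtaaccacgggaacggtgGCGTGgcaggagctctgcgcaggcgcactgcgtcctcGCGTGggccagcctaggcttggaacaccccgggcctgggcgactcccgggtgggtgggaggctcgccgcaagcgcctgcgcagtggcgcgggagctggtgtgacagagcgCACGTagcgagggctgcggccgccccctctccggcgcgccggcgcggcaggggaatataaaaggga

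The Slc2a1 window holds 1 match to ACGTG and 1 to GCGTG, the Bnip3 window 2 and 3, and the P4ha1 window 1 and 2, counted over both strands. RefSeq gave windows for 34 of the 36 genes, 51 in all, and 80.4% of the 51 held a match to either core, beside 43.8% of all 32851 mouse windows of that length. ACGTG alone was in 54.9% of them and in 19.6% of all windows, and GCGTG in 54.9% and 32.4%. The E-box CACGTG, which contains ACGTG on both strands, was in 15.7% and 7.15%. Of the 17 genes lowest in line 1 that have a window, 15 held a core, as did 13 of the 13 other tested genes with a window. A match of letters is no evidence of binding.

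With line 1 of every group left out, a choice made after its values were seen, BCR-ABL1 differed from MSCV lines in 15 of the 32 genes, 11 higher and 4 lower, where 30.1% of all genes were called. Slc2a1 was then called higher (log2 0.94 ± 0.20 SE, adjusted p = 0.00646), as were Hk2 (0.69, adjusted p = 0.00543), P4ha1 (0.82, adjusted p = 0.0102) and Egln1 (0.53, adjusted p = 0.0133). Tpi1 and Bnip3l were then called lower. SFPQ-ABL1 differed from BCR-ABL1 lines in 14 genes, 1 higher and 13 lower, where 20.6% of all genes were called. Slc2a1 was among the lower ones (log2 -0.97 ± 0.20, adjusted p = 0.00865), with Hk2, Bnip3, Egln1, Gpi1, Pfkp and Pgam1 beside those named above, and Pkm and Slc16a1 were no longer called (adjusted p = 0.0794 and 0.107). SFPQ-ABL1 differed from MSCV lines in 1 gene, again Pdk3, where 0.636% of all genes were called. Leaving out the lowest line narrows the spread of genes with the line 1 pattern. For Slc2a1 in BCR-ABL1 against MSCV, the log2 fold change with all lines was 0.92 ± 0.59. The adjusted p-values of such genes without line 1 follow in part from that choice and are no independent test.

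Glucose enters through the SLC2A transporters. Slc2a3, the high-affinity transporter GLUT3 (chr6:122727809-122801640, minus strand), had 155, 1387, 501 and 649.7 CPM in SFPQ-ABL1 lines 1 to 4. It had 1071, 3176, 2778 and 2790.2 CPM in BCR-ABL1 lines, and 438, 621, 1138 and 903 CPM in MSCV lines. BCR-ABL1 lines 2 to 4 lay above all other libraries, and BCR-ABL1 line 1 lay within the range of the other groups. Slc2a3 was 3.17-fold higher in BCR-ABL1 than in MSCV lines (log2 1.66 ± 0.53 SE, adjusted p = 0.0290) and 3.64-fold lower in SFPQ-ABL1 than in BCR-ABL1 lines (log2 -1.87 ± 0.53, adjusted p = 0.0215).

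Single lines decide these Slc2a3 calls: the first was lost without BCR-ABL1 line 2, 3 or 4 or MSCV line 1, 2 or 4 (adjusted p = 0.0521 to 0.0724), and the second without SFPQ-ABL1 line 3 or 4 or BCR-ABL1 line 2 or 3 (0.0507 to 0.0641). Slc2a1, whose values stand above, was not called by edgeR without a replicate block. It averaged 166 ± 92.2 CPM in SFPQ-ABL1, 319 ± 167 in BCR-ABL1 and 169 ± 85.7 in MSCV lines (SD, n = 4 each). Per kilobase of exon sequence, the log2 ratio of Slc2a1 to Slc2a3 within a line was -0.65, -1.30, -0.58 and -0.80 in SFPQ-ABL1 lines and -2.88, -1.84, -1.86 and -1.75 in BCR-ABL1 lines. The fusion groups did not overlap (exact permutation test, two-sided, p = 0.0286, the smallest that 4 against 4 allows, adjusted p = 0.0714 over 15 ratio tests). MSCV lines, at -2.13 to -0.42, overlapped with both fusion groups.

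Hexokinases trap glucose as glucose 6-phosphate, and Hk3 is the isozyme typical of myeloid cells. Hk3 (chr13:55005985-55021385, minus strand) had 90.5, 41.9, 49.0 and 71.0 CPM in SFPQ-ABL1 lines 1 to 4. BCR-ABL1 lines had 276, 300.2, 168 and 665 CPM, and MSCV lines had 58.8, 20.5, 74.5 and 66.7 CPM. Every BCR-ABL1 line lay above every line of the other groups, and the BCR-ABL1 lines themselves ranged widely. Hk3 was 6.39-fold higher in BCR-ABL1 than in MSCV lines (log2 2.68 ± 0.45, adjusted p = 0.000808) and 5.59-fold lower in SFPQ-ABL1 than in BCR-ABL1 lines (log2 -2.48 ± 0.45, adjusted p = 0.00181).

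Both Hk3 calls held in all 24 alternative settings. Of 7 granulocyte and monocyte markers, 5 passed 1 CPM in any line. Their summed level was 98.6 to 386 CPM in SFPQ-ABL1, 45.2 to 106 in BCR-ABL1 and 96.4 to 451 in MSCV lines. The sum was not raised in BCR-ABL1 lines, but it came mostly from Prtn3, Mpo and Lyz2, and markers at a low level hardly enter it. Among the 7 markers, the integrin Itgam had 0.0779 to 1.29, 0.683 to 2.22 and 0.0629 to 0.370 CPM in the same order, while Ly6g was at or near 0. Mpo had 19.2 to 76.0, 2.41 to 9.3 and 5.6 to 19.5 CPM, and Prtn3 59.2 to 313, 29.8 to 78.9 and 65.6 to 389.8 CPM. Lyz2 had 18.7 to 29.0, 10.8 to 21.1 and 20.6 to 39.6 CPM. Of 5 mast cell and basophil markers 4 passed 1 CPM, with sums of 808 to 1369, 1341 to 1584 and 1356 to 1644 CPM, mostly from Gata2. Cpa3 reached 42.2 CPM in a BCR-ABL1 line and at most 2.35 CPM in SFPQ-ABL1 and 0.365 CPM in MSCV lines. Fcer1a reached 2.58 CPM in a BCR-ABL1 line and at most 0.0536 and 0.0134 CPM in SFPQ-ABL1 and MSCV lines. Ms4a2 went the other way, with 8.03 to 10.9 CPM in SFPQ-ABL1, 4.96 to 7.87 in BCR-ABL1 and 11.5 to 13.9 in MSCV lines. The part of such cells in the Hk3 level was not tested.

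The level per kilobase of exon sequence shows how the hexokinases compared within a group. In BCR-ABL1 lines Hk3 averaged 95.7 ± 58.7 CPM per kilobase, Hk2 73.0 ± 27.9 and Hk1, the isozyme of most tissues, 34.2 ± 5.10 (SD, n = 4). In SFPQ-ABL1 lines the order was Hk2 with 43.0 ± 14.6, Hk1 with 32.6 ± 7.51 and Hk3 with 17.1 ± 5.99, and in MSCV lines Hk2 with 45.8 ± 16.2, Hk1 with 36.2 ± 3.30 and Hk3 with 15 ± 6.51. The SDs of Hk3 and Hk2 overlap in BCR-ABL1 lines, and so do those of Hk2 and Hk1 in the other groups. Hk2 had 143 to 348 CPM in SFPQ-ABL1, 191 to 552 in BCR-ABL1 and 134 to 356 in MSCV lines, and Hk1 had 197 to 353, 231 to 334 and 276 to 338 CPM. Neither was called with all lines and no replicate block. With the block, Hk2 was called higher in BCR-ABL1 than in MSCV lines and lower in SFPQ-ABL1 than in BCR-ABL1 lines.

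Phosphofructokinase commits sugar to glycolysis and is built from the subunits PFKL, PFKP and PFKM. Pfkp had 358, 496, 495 and 545 CPM in SFPQ-ABL1 lines, 501, 744, 735 and 865 CPM in BCR-ABL1 lines and 289.9, 421, 539 and 520.1 CPM in MSCV lines. Its BCR-ABL1 lines lay above the other groups but for line 1. Pfkp was 1.61-fold higher in BCR-ABL1 than in MSCV lines (log2 0.69 ± 0.21, adjusted p = 0.0220), a call lost without BCR-ABL1 line 3 or 4 (adjusted p = 0.0511 to 0.0686). Against BCR-ABL1, SFPQ-ABL1 lines missed the threshold (log2 -0.59 ± 0.21, adjusted p = 0.0512).

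Pfkm moved the other way between BCR-ABL1 and MSCV. It had 51.1, 82.9, 78.2 and 80.4 CPM in SFPQ-ABL1 lines, 58.2, 62.5, 60.1 and 61.4 CPM in BCR-ABL1 lines and 77.9, 66.7, 102 and 99.5 CPM in MSCV lines. The BCR-ABL1 lines were close together and all below the MSCV lines. Pfkm was 1.43-fold lower in BCR-ABL1 than in MSCV lines (log2 -0.51 ± 0.16, adjusted p = 0.0248), and the call was lost without BCR-ABL1 line 1, 3 or 4 or MSCV line 3 or 4 (adjusted p = 0.0504 to 0.0752).

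Pfkl, the subunit with the highest level per kilobase in all 3 groups, was not called and had 357 to 745 CPM in SFPQ-ABL1, 364 to 597 in BCR-ABL1 and 448 to 673 in MSCV lines. The log2 ratio of Pfkp to Pfkl per kilobase was -1.16 ± 0.30 in SFPQ-ABL1, -0.57 ± 0.10 in BCR-ABL1 and -1.46 ± 0.23 in MSCV lines (SD, n = 4 each). BCR-ABL1 lines did not overlap with either of the others (exact permutation p = 0.0286 each, adjusted p = 0.0714), the ratio being higher there in 4 of 4 lines, and none of the 15 ratio tests passed after adjustment. With line 1 the lowest for both genes in every group, the ratio in BCR-ABL1 line 1, -0.54, still lay within the range of BCR-ABL1 lines 2 to 4, -0.71 to -0.46.

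PFKFB enzymes make and break down fructose 2,6-bisphosphate, the strongest activator of phosphofructokinase. PFKFB3 mostly makes it. Pfkfb3 had 40.6, 36, 36.9 and 41.6 CPM in SFPQ-ABL1 lines, 51.6, 65.4, 48.5 and 53.0 CPM in BCR-ABL1 lines and 45.2, 27.3, 34.1 and 36.6 CPM in MSCV lines. All BCR-ABL1 lines lay above all others. Pfkfb3 was 1.53-fold higher in BCR-ABL1 than in MSCV lines (log2 0.61 ± 0.14, adjusted p = 0.00501) and 1.41-fold lower in SFPQ-ABL1 than in BCR-ABL1 lines (log2 -0.50 ± 0.14, adjusted p = 0.0196, lost without SFPQ-ABL1 line 3 or BCR-ABL1 line 2, with adjusted p = 0.0570 to 0.0619).

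Pfkfb4, an isozyme that hypoxia induces in other cells, showed the opposite. It had 30.3, 37.3, 32.5 and 34.8 CPM in SFPQ-ABL1 lines, 21.1, 20.5, 19.4 and 24.4 CPM in BCR-ABL1 lines and 32.7, 40.7, 37.9 and 40.7 CPM in MSCV lines. All BCR-ABL1 lines lay below all others. Pfkfb4 (chr9:108991778-109032228, plus strand) was 1.78-fold lower in BCR-ABL1 than in MSCV lines (log2 -0.83 ± 0.10, adjusted p = 0.000115) and 1.58-fold higher in SFPQ-ABL1 than in BCR-ABL1 lines (log2 0.66 ± 0.10, adjusted p = 0.000859). Pfkfb2 had 6.75 to 12.7 CPM over all lines and was not called.

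**Figure D3:**
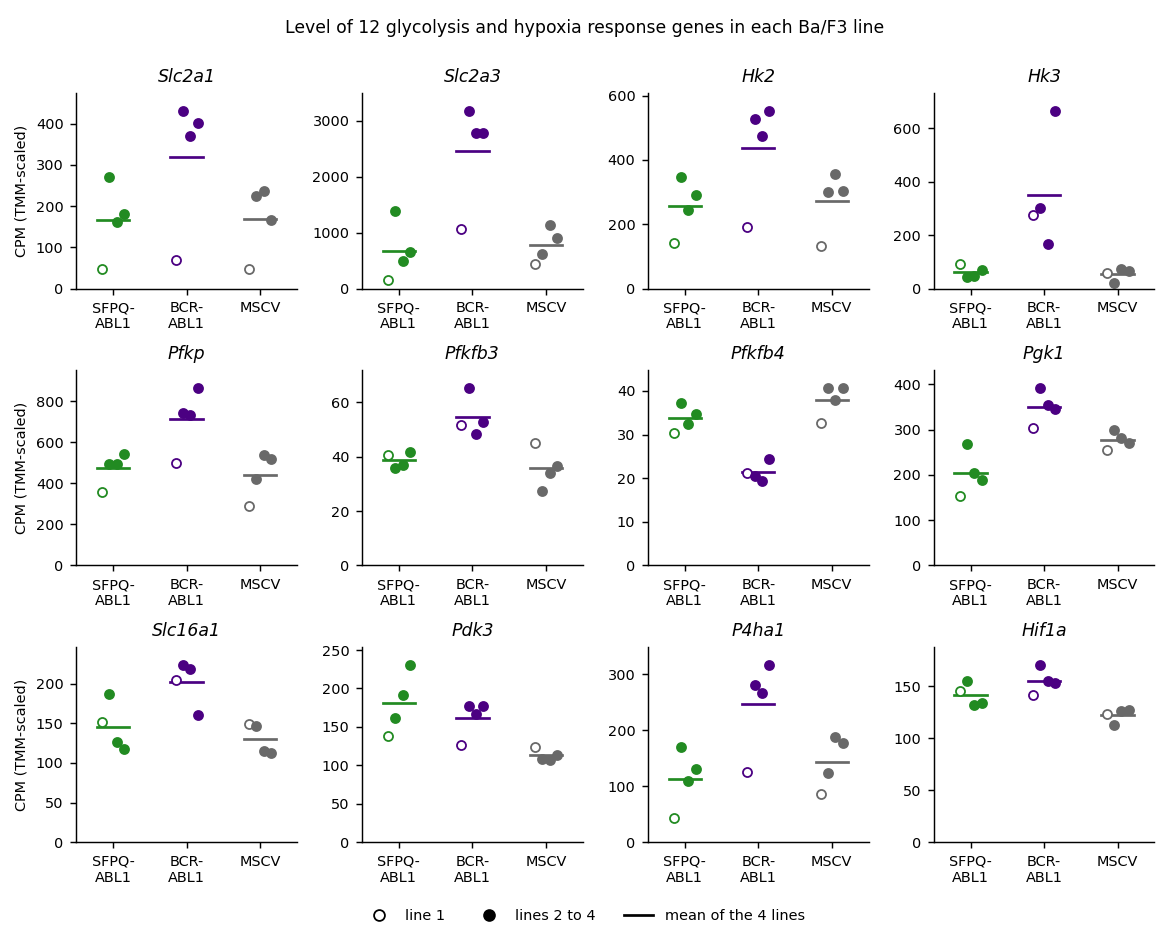
TMM-scaled CPM (linear axes from 0) of 12 genes in each SFPQ-ABL1, BCR-ABL1 and MSCV line, with line 1 as an open circle and the mean of the 4 lines as a bar. Hk3 and Pfkfb3 are higher and Pfkfb4 is lower in all 4 BCR-ABL1 lines than in any other line, and the open circles of Slc2a1, Slc2a3, Hk2, Pfkp, Pgk1 and P4ha1 are the lowest of every group.

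Pkm, Aldoa, Ldha, Tpi1 and Gpi1 were among the most abundant of the 36 genes. Processed pseudogenes take a share of the reads of several glycolytic enzymes. Counts of annotated look-alike genes, which match the gene over at least 250 bases with at least 95% identity, were set beside those of the gene. Gapdh, which oxidises glyceraldehyde 3-phosphate, had 15697 counts over the 12 libraries, where its 78 look-alikes had 958686, of which Gm13394 alone had 868961. The gene itself thus held 1.61% of the counts of the family. Eno1 held 16.0%, Pgam1 37.4%, Pgk1 64.9%, Gpi1 67.6%, Bnip3 80.4%, Bnip3l 82.8%, Pkm 89.1%, Tpi1 95.4% and Ldha 95.8%. Levels of Gapdh, Eno1 and Pgam1 are therefore uncertain, because the counts do not show which copy a read came from.

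**Figure D4:**
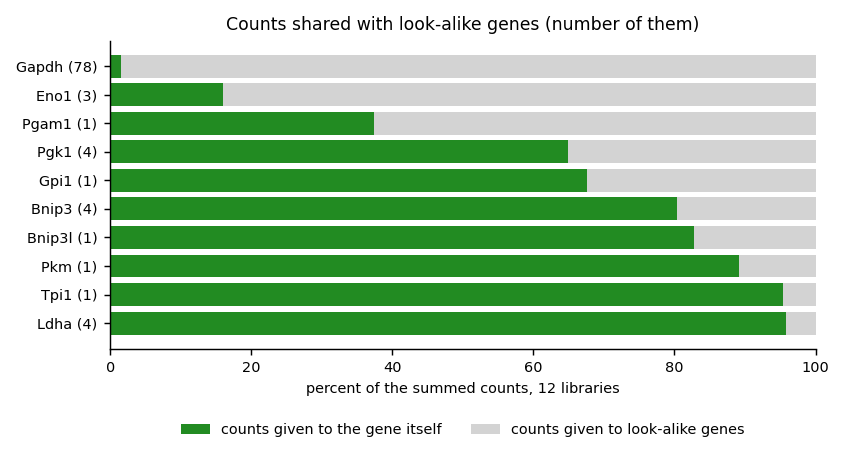
Share of the summed counts of 12 libraries given to each gene itself (green) and to its look-alike genes (grey), with the number of look-alikes in parentheses. The share of the gene itself is 1.61% for Gapdh, 16.0% for Eno1 and 37.4% for Pgam1.

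Gapdh under its own identifier had 15.3, 15.7, 18.0 and 14.7 CPM in SFPQ-ABL1 lines, 13.9, 28.6, 20.8 and 14.7 CPM in BCR-ABL1 lines and 16.8, 15.8, 25.7 and 16.7 CPM in MSCV lines. The groups overlapped and the gene was not called. With the look-alike counts added, an alternative chosen after the data were seen, it was lower in SFPQ-ABL1 than in BCR-ABL1 lines (log2 -0.48, adjusted p = 0.0202). That setting called 10 of the 32 genes between the fusion groups, 9 between BCR-ABL1 and MSCV and 1 between SFPQ-ABL1 and MSCV, and no call made without the look-alikes was lost.

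Pgk1, the phosphoglycerate kinase that makes the first ATP of glycolysis (chrX:106187100-106203699, plus strand), had 154, 269, 204 and 189 CPM in SFPQ-ABL1 lines. It had 304, 392, 355 and 345 CPM in BCR-ABL1 lines and 255, 299.6, 281 and 269.6 CPM in MSCV lines. Every BCR-ABL1 line lay above every other line. Pgk1 was 1.71-fold lower in SFPQ-ABL1 than in BCR-ABL1 lines (log2 -0.78 ± 0.14, adjusted p = 0.00208). With the counts of its 4 look-alikes, of which Pgk1-rs7 had 125040, the value was -0.74 (adjusted p = 0.00393). BCR-ABL1 was not called against MSCV (adjusted p = 0.0890), nor was SFPQ-ABL1 (adjusted p = 0.127).

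Aldoa, the aldolase of most tissues, had 1712, 2904, 2411 and 2406 CPM in SFPQ-ABL1 lines, 2769, 3382, 3761 and 3572 CPM in BCR-ABL1 lines and 2548, 3079.9, 3759 and 3441 CPM in MSCV lines. SFPQ-ABL1 lines 1, 3 and 4 lay below all BCR-ABL1 lines. Aldoa was 1.43-fold lower in SFPQ-ABL1 than in BCR-ABL1 lines (log2 -0.52 ± 0.16, adjusted p = 0.0330), a call lost without SFPQ-ABL1 line 1, 3 or 4 or BCR-ABL1 line 2, 3 or 4 (adjusted p = 0.0602 to 0.0935). Its brain isozyme Aldoc stayed between 0.370 and 0.834 CPM.

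Pgam1, a phosphoglycerate mutase, had 45.5, 131, 69.9 and 79.3 CPM in SFPQ-ABL1 lines, 68.6, 171, 142 and 143 CPM in BCR-ABL1 lines and 67.1, 107, 103 and 90.8 CPM in MSCV lines. All groups overlapped, and its lowest line was line 1 in each. The remaining enzymes, Gpi1, Tpi1, Eno1 and Eno3, were not called in any comparison by edgeR with all lines, TMM factors, the filter on low counts and no replicate block. With the block, Tpi1 was called lower in BCR-ABL1 than in MSCV lines. In SFPQ-ABL1 against BCR-ABL1 lines, the block called Tpi1 higher and Eno1 and Gpi1 lower. In other settings Tpi1 was called lower in BCR-ABL1 than in MSCV lines by DESeq2, with library totals alone, without the filter and with the 8 libraries alone. Gpi1 was called lower in SFPQ-ABL1 than in BCR-ABL1 lines by DESeq2, by limma-voom and with RLE size factors. Tpi1 had 936 to 1735 CPM in SFPQ-ABL1, 731 to 1185 in BCR-ABL1 and 1103 to 1955 in MSCV lines. Gpi1 had 605 to 1049, 985 to 1383 and 905 to 1289.8 CPM in the same order, and its adjusted p in SFPQ-ABL1 against BCR-ABL1 was 0.0512. Eno3, the muscle enolase, had 24.7 to 54.9 CPM over all lines.

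Pkm, pyruvate kinase, had 2468, 4656, 3015 and 3101 CPM in SFPQ-ABL1 lines, 4008, 4923, 4669 and 5105 CPM in BCR-ABL1 lines and 4034, 4101, 4360.3 and 4213 CPM in MSCV lines. SFPQ-ABL1 lines 1, 3 and 4 lay below all other libraries, and SFPQ-ABL1 line 2 lay among the BCR-ABL1 lines. Pkm was 1.41-fold lower in SFPQ-ABL1 than in BCR-ABL1 lines (log2 -0.50 ± 0.16, adjusted p = 0.0346). The call was lost without SFPQ-ABL1 line 1, 3 or 4 or BCR-ABL1 line 2, 3 or 4 (adjusted p = 0.0714 to 0.0943), with no filter on low counts (0.0513) and in a fit of only the 8 libraries compared (0.0689).

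Pkm makes a pair of enzymes from mutually exclusive exons. PKM1 is constantly active, and PKM2 is regulated by sugar phosphates and by kinase signalling and is the form of most dividing cells. Both exons have 167 bases and lie on the plus strand of chromosome 9 (mm10), the M1 exon at chr9:59675029-59675195 and the M2 exon at chr9:59675568-59675734. They are shown because the shares of M2 counts in the fusion groups did not overlap, a difference that missed the adjusted threshold, and capitals mark the 64 positions at which the exons differ.
Pkm M1 exon: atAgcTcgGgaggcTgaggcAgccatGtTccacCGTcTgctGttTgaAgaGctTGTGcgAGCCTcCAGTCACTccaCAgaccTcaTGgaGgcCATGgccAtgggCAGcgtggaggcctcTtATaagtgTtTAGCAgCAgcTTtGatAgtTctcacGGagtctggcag
Pkm M2 exon: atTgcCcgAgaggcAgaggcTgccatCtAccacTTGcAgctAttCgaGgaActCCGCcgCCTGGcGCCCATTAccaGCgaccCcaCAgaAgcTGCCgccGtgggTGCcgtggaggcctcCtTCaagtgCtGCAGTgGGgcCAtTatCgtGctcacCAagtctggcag

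The authors' exon table gave 84 to 289 counts for the M1 exon and 380 to 1278 for the M2 exon per library. The M2 exon held 81.9%, 86.4%, 83.9% and 87.5% of these counts in SFPQ-ABL1 lines 1 to 4. It held 78.1%, 74.2%, 73.2% and 71.4% in BCR-ABL1 lines, and 76.0%, 79.98%, 83.0% and 85.9% in MSCV lines. The M2 exon held most of these counts in every line, and all 4 SFPQ-ABL1 lines lay above all 4 BCR-ABL1 lines.

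SFPQ-ABL1 lines averaged 84.9 ± 2.52% and BCR-ABL1 lines 74.2 ± 2.83% (SD, n = 4 each), a difference of 10.7 percentage points (exact permutation test, two-sided, p = 0.0286, adjusted p = 0.0714 over 15 tests). MSCV lines averaged 81.2 ± 4.25% and overlapped with both fusion groups. Single-library 95% Wilson intervals, which cover counting error only, ran, for example, over 84.6% to 88.1% in SFPQ-ABL1 line 2 and 68.5% to 74.1% in BCR-ABL1 line 4. The processed copy Gm6560 matches 155 of the 167 bases of the M2 exon and 96 of those of the M1 exon. How the exon table treats a read that matches both was not given in the sources used here, and the part of such reads in the shares was not tested.

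**Figure D5:**
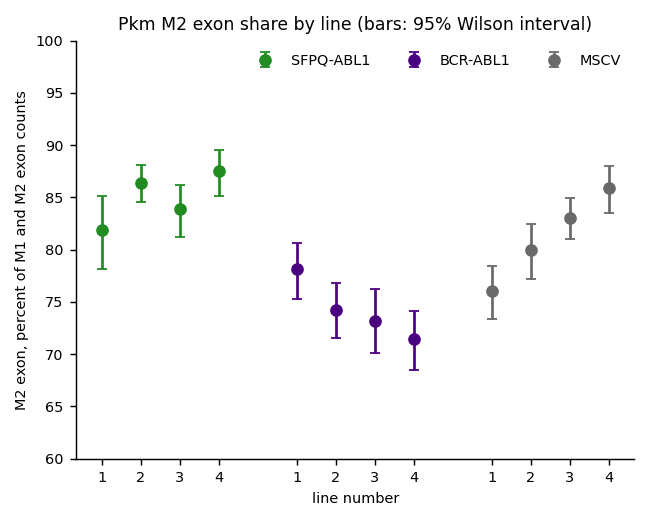
Percent of the counts on both alternative Pkm exons that fell on the M2 exon in each line, with bars for the 95% Wilson interval (vertical axis from 60 to 100%). SFPQ-ABL1 lines lie between 81.9% and 87.5%, BCR-ABL1 lines between 71.4% and 78.1%, and MSCV lines between 76.0% and 85.9%.

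Lactate dehydrogenase A reduces pyruvate to lactate, and Ldha was not called in any comparison by edgeR with all lines and no replicate block. With the block it was called lower in SFPQ-ABL1 than in BCR-ABL1 lines. It had 1454, 2655, 1784 and 1805 CPM in SFPQ-ABL1 lines, 1865, 2890.4, 2695 and 2768 CPM in BCR-ABL1 lines and 1640.4, 2658, 2188 and 2055 CPM in MSCV lines. Line 1 was the lowest and line 2 the highest of every group. Its partner subunit gene Ldhb had 0 to 6 counts per library, where Ldha had 108500 to 210926.

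Slc16a1 encodes the lactate carrier MCT1 (chr3:104638668-104658462, plus strand). It had 152, 187, 127 and 117 CPM in SFPQ-ABL1 lines, 204, 224, 219 and 161 CPM in BCR-ABL1 lines and 149, 146, 115 and 113 CPM in MSCV lines. All BCR-ABL1 lines lay above all MSCV lines, and BCR-ABL1 line 4 lay within the SFPQ-ABL1 range. Slc16a1 was 1.55-fold higher in BCR-ABL1 than in MSCV lines (log2 0.63 ± 0.16, adjusted p = 0.00840) and 1.39-fold lower in SFPQ-ABL1 than in BCR-ABL1 lines (log2 -0.47 ± 0.16, adjusted p = 0.0415).

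The second Slc16a1 call was lost without SFPQ-ABL1 line 1, 3 or 4 or BCR-ABL1 line 1, 2 or 3 (adjusted p = 0.0666 to 0.115), with scaling by library totals alone (0.0744) and with only the 8 libraries compared (0.0543). Slc16a3, the hypoxia-induced lactate carrier MCT4, was at 0.883 to 2.27 CPM in SFPQ-ABL1, 0.542 to 1.59 in BCR-ABL1 and 1.27 to 3.20 in MSCV lines. It was not called without a replicate block, and with the block it was called lower in BCR-ABL1 than in MSCV lines. The log2 ratio of Slc16a3 to Slc16a1 per kilobase was -6.96 ± 0.36 in SFPQ-ABL1, -7.89 ± 0.60 in BCR-ABL1 and -6.49 ± 0.48 in MSCV lines (SD, n = 4 each). BCR-ABL1 lines lay below both other groups without overlap (exact permutation p = 0.0286 each, adjusted p = 0.0714).

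Pyruvate dehydrogenase kinases switch off pyruvate dehydrogenase and so keep pyruvate from being burned in the mitochondria. Pdk3 (chrX:93764607-93832201, minus strand) had 138, 162, 191 and 231 CPM in SFPQ-ABL1 lines, 127, 177, 167 and 177 CPM in BCR-ABL1 lines and 124, 108, 107 and 114 CPM in MSCV lines. Every fusion line lay above every MSCV line. Pdk3 was 1.59-fold higher in SFPQ-ABL1 than in MSCV lines (log2 0.67 ± 0.15, adjusted p = 0.0435) and 1.43-fold higher in BCR-ABL1 than in MSCV lines (log2 0.51 ± 0.15, adjusted p = 0.0187).

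The fusion groups were not called apart for Pdk3 (log2 0.16 ± 0.15, adjusted p = 0.468). The SFPQ-ABL1 call was lost without SFPQ-ABL1 line 3 or 4, BCR-ABL1 line 2, 3 or 4 or MSCV line 2, 3 or 4 (adjusted p = 0.0509 to 0.124), by limma-voom (0.0502) and with only the 8 libraries compared (0.0714), and the BCR-ABL1 call without BCR-ABL1 line 2 or 4 or MSCV line 3 (0.0505 to 0.0534). Pdk1, the isozyme under HIF1A control, had 72.4 to 198 CPM in SFPQ-ABL1, 135 to 222 in BCR-ABL1 and 117 to 236 in MSCV lines and was not called.

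Hif1a (chr12:73901375-73947530, plus strand) had 146, 155, 132 and 134 CPM in SFPQ-ABL1 lines, 142, 171, 155 and 153 CPM in BCR-ABL1 lines and 123, 113, 126 and 127 CPM in MSCV lines. Every line of both fusion groups lay above every MSCV line. Hif1a was 1.27-fold higher in BCR-ABL1 than in MSCV lines (log2 0.35 ± 0.08, adjusted p = 0.00732), while SFPQ-ABL1 against MSCV missed the threshold (log2 0.21 ± 0.08, adjusted p = 0.198). HIF1A is known to be controlled mostly through its protein, which was not measured.

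P4ha1, which hydroxylates collagen and is a HIF target, had 42.7, 170.2, 109.9 and 131 CPM in SFPQ-ABL1 lines, 125, 280.3, 266 and 317 CPM in BCR-ABL1 lines and 85.6, 123, 187 and 178 CPM in MSCV lines. BCR-ABL1 lines 2 to 4 lay above all others. P4ha1 was 2.18-fold lower in SFPQ-ABL1 than in BCR-ABL1 lines (log2 -1.12 ± 0.38, adjusted p = 0.0467). The call was lost without any of 9 single lines, which were SFPQ-ABL1 lines 1, 3 and 4, BCR-ABL1 lines 2, 3 and 4 and MSCV lines 2, 3 and 4 (adjusted p = 0.0528 to 0.113), and with library totals alone (0.0523) or the 8 libraries compared (0.0604).

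The remaining HIF targets were not called by edgeR with all lines and no replicate block. DESeq2 called Egln1 lower in SFPQ-ABL1 than in BCR-ABL1 lines. Bnip3 had 50.9 to 256 CPM in SFPQ-ABL1, 179 to 426 in BCR-ABL1 and 96.7 to 349 in MSCV lines. Its relative Bnip3l had 412 to 476, 390.1 to 431 and 370.1 to 557 CPM in the same order. Vegfa, the growth factor of blood vessels, had 87.3 to 169, 149 to 241 and 97.4 to 203 CPM, and Egln1 had 102 to 239, 176 to 361 and 131 to 240.1 CPM. Egln3, a strongly hypoxia-induced prolyl hydroxylase in many cells, had 1 count in all 12 libraries together.

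Over the 32 genes, 8 had BCR-ABL1 and MSCV lines that did not overlap (31.6% of all genes did so), 2 had SFPQ-ABL1 and MSCV lines that did not overlap (11.2% of all genes), and 4 had SFPQ-ABL1 and BCR-ABL1 lines that did not overlap (27.9% of all genes). The 4 genes of the last comparison were Hk3, Pgk1, Pfkfb3 and Pfkfb4.

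Genes next to these in metabolism were counted in the same fit. Of 14 tested genes of the pentose phosphate pathway, which branches off at glucose 6-phosphate, 11 were called in BCR-ABL1 against MSCV, 3 higher and 8 lower, with a median log2 fold change of -0.44, where 32.1% of all genes were called. The count was 7 without BCR-ABL1 line 3, where 4474 of all 17532 genes were called. It was also 7 with the 8 libraries alone, where 5117 of 16645 were. Pgd, which makes NADPH, had 124 ± 10.1 CPM in BCR-ABL1 and 173 ± 12.9 CPM in MSCV lines (SD, n = 4 each, adjusted p = 0.00145), and Taldo1, transaldolase, had 319.6 ± 38.5 and 481 ± 59.7 CPM (adjusted p = 0.00133). Rpe, the ribulose phosphate epimerase, was higher, with 88.2 ± 7.05 CPM in BCR-ABL1 and 55.0 ± 2.26 CPM in MSCV lines (adjusted p = 5.45e-05). In SFPQ-ABL1 against BCR-ABL1, 8 were called, 7 higher and 1 lower, with a median of 0.41, where 26.0% of all genes were called, and none was called in SFPQ-ABL1 against MSCV, where the median was 0.13 (1 without MSCV line 2).

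Of 14 genes that bring pyruvate into the mitochondria and the citric acid cycle, 7 were called in BCR-ABL1 against MSCV, 6 higher and 1 lower, with a median of 0.24, where 32.1% of all genes were called. Dld, a subunit of pyruvate dehydrogenase, had 211 ± 11.4 CPM in SFPQ-ABL1, 313 ± 10.9 in BCR-ABL1 and 193 ± 7.42 in MSCV lines (SD, n = 4 each). It was higher in BCR-ABL1 than in MSCV lines (adjusted p = 3.66e-05) and lower in SFPQ-ABL1 than in BCR-ABL1 lines (adjusted p = 0.000246). Pdha1, another subunit, was 1.37-fold and Cs, citrate synthase, 1.30-fold higher in BCR-ABL1 than in MSCV lines (adjusted p = 0.00353 and 0.00873). In SFPQ-ABL1 against BCR-ABL1 5 were called, 1 higher and 4 lower, where 26.0% of all genes were, and in SFPQ-ABL1 against MSCV none.

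Of 34 other hypoxia response genes, 12 were called in BCR-ABL1 against MSCV (8 higher, 4 lower, median 0.32), 1 in SFPQ-ABL1 against MSCV (median -0.15) and 15 in SFPQ-ABL1 against BCR-ABL1 (4 higher, 11 lower, median -0.50). The shares of all genes called in these comparisons were 32.1%, 1.79% and 26.0%. The first count was 7 without MSCV line 4, where 4681 of all 17541 genes were called. Ero1l, an oxidase of the endoplasmic reticulum, had 348 ± 172 CPM in SFPQ-ABL1 and 2071 ± 1009 CPM in BCR-ABL1 lines and was 5.95-fold lower (adjusted p = 0.00247). Nfil3, a transcription factor of lymphocytes, was 5.81-fold higher in BCR-ABL1 than in MSCV lines (adjusted p = 0.000113), and Car12, a carbonic anhydrase, 4.61-fold higher (adjusted p = 0.000344). The chemokine receptor Cxcr4 moved the other way, with 249.5 ± 32.3 CPM in SFPQ-ABL1, 87.9 ± 20.9 in BCR-ABL1 and 432 ± 105 in MSCV lines, and was 4.92-fold lower in BCR-ABL1 than in MSCV lines (adjusted p = 1.77e-05). Tfrc, the transferrin receptor, was the 1 gene called in SFPQ-ABL1 against MSCV (604 ± 104 and 308 ± 85.6 CPM, adjusted p = 0.0351). The list had 0 calls there without SFPQ-ABL1 line 3 or 4, BCR-ABL1 line 3, or MSCV line 2, 3 or 4, and 2 without MSCV line 1. Ero1l, Nfil3 and Tfrc were also the lowest in line 1 of every group.

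Of 18 HIF factors and oxygen sensors, 6 were called in BCR-ABL1 against MSCV (4 higher, 2 lower) and 4 in SFPQ-ABL1 against BCR-ABL1 (1 higher, 3 lower), where 32.1% and 26.0% of all genes were called. Siah2, a ubiquitin ligase that destroys the prolyl hydroxylases, had 20.7 ± 3.32 CPM in SFPQ-ABL1, 43.0 ± 7.55 in BCR-ABL1 and 19.5 ± 3.80 in MSCV lines. It was 2.20-fold higher in BCR-ABL1 than in MSCV lines (adjusted p = 0.000303) and 2.08-fold lower in SFPQ-ABL1 than in BCR-ABL1 lines (adjusted p = 0.000808). Cul2, the cullin of the ligase that removes HIF1A, was 1.51-fold higher and Rbx1, its RING partner, 1.35-fold lower in BCR-ABL1 than in MSCV lines (adjusted p = 0.000730 and 0.00353). None was called in SFPQ-ABL1 against MSCV (1 without MSCV line 1).

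Of 14 transcriptional regulators of glycolysis, 6 were called in BCR-ABL1 against MSCV (3 higher, 3 lower) and 4 in SFPQ-ABL1 against BCR-ABL1 (1 higher, 3 lower), where 32.1% and 26.0% of all genes were called, with none in SFPQ-ABL1 against MSCV (1 without MSCV line 1). The first count was 3 without BCR-ABL1 line 2 or 3, where 4708 of 17404 and 4474 of 17532 genes were called. The second was 2 without SFPQ-ABL1 line 3 or BCR-ABL1 line 3 or 4. All-gene counts there were 3161 of 17456, 3164 of 17532 and 3629 of 17478. Atf4, the factor of the amino acid response, had 380.1 ± 42.0 CPM in SFPQ-ABL1, 596 ± 117 in BCR-ABL1 and 267 ± 73.4 in MSCV lines. Txnip, which limits glucose uptake, was 1.76-fold lower in BCR-ABL1 than in MSCV lines (adjusted p = 0.0287). Of 21 other glycolysis and glucose transport genes, 10 were called in BCR-ABL1 against MSCV (5 higher, 5 lower), none in SFPQ-ABL1 against MSCV and 5 in SFPQ-ABL1 against BCR-ABL1 (2 higher, 3 lower), beside the same shares of all genes. Without SFPQ-ABL1 line 2, BCR-ABL1 line 1 or MSCV line 1, 1 was called in SFPQ-ABL1 against MSCV. Tigar, a phosphatase that lowers fructose 2,6-bisphosphate, was 2.57-fold higher in BCR-ABL1 than in MSCV lines (adjusted p = 0.00125), and Bpgm, which makes 2,3-bisphosphoglycerate, was 1.61-fold lower (adjusted p = 0.000289). For the 5 lists with no call by edgeR in SFPQ-ABL1 against MSCV, an unadjusted p under 0.05 was found for 5 genes of the pentose phosphate pathway, 1 of pyruvate entry, 2 HIF factors and oxygen sensors, 2 transcriptional regulators and 4 other glycolysis genes. DESeq2 called 2, 0, 2, 0 and 2 genes of these lists and limma-voom 0, 0, 0, 0 and 1, in the same order. Of all genes, DESeq2 called 1085 of 17160 and limma-voom 285 of 17197 in SFPQ-ABL1 against MSCV.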

How the data were processed

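RNA sequencing of 12 Ba/F3 lines, 4 in each of 3 groups, was used. What the authors deposited are unnormalized counts for each Ensembl gene and exon. The submitters' processing notes name Subread, featureCounts and mm10. Versions, annotation, strand setting and the handling of reads that match several places were not given in the sources used here. Counts come from reads without molecular identifiers, so intervals cover counting error only.

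The counts were fitted with edgeR 4.0.16 in R 4.3.3 (filterByExpr, TMM, two-sided quasi-likelihood test, all 12 libraries, a term for group alone). A call means a Benjamini-Hochberg adjusted p under 0.05 over the 17197 genes tested, and every adjusted p of a gene comes from this test unless another is named. Standard errors of log2 fold changes follow from the same fit. Ratios were tested by exact permutation (scipy 1.17.1) over 15 tests, on counts per kilobase with no pseudocount, only where no line had under 10 counts. Alternatives used DESeq2 1.42.0, limma 3.58.1, other scalings and filters, a replicate block and left-out lines. Symbols and coordinates came from GENCODE M21, look-alikes from BLAST 2.17.0, promoters from RefSeq. Values in every line are given for genes called in any comparison and for Hif1a, Pkm, Ldha, Slc2a1, Gapdh and Pgam1. Genes named from a further list are among the 4 of smallest adjusted p in a comparison, of called genes whose higher group reaches 1 CPM; Hk2, Bnip3, Egln1 and Pdk1 were named after their values were seen. The genes, lists and tests were chosen with earlier results of these data known. On data simulated for BCR-ABL1 against MSCV, the fit called 46.3% of genes changed 1.5-fold, 74.6% changed 2-fold, all changed 4-fold and 0.0294% of unchanged ones. The simulation changed 200 genes and gave same-numbered lines no shared deviation. In the data 5522 genes were called in that comparison, so these rates need not hold there. The 18 replicate pairs differed by more than sampling noise (chi-square per degree of freedom 33.1 to 182).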

Additional observations from a re-analysis of the deposited data

Results flagged for a closer look

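Of 111 groups of 4 lines examined, over the CPM of the tested genes and the ratios, 10 held a line far from the other 3, by the gap to the nearest line relative to the whole range. Chance flags about 1 in 20 groups.

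Of the 10, 6 were line 1 libraries that lay below the others. Slc2a1 had 70.3 CPM in BCR-ABL1 line 1, where the others had 371 to 431 CPM. Pfkm had 51.1 CPM in SFPQ-ABL1 line 1 (others 78.2 to 82.9), and Pdk1 had 72.4 CPM there (others 178 to 198). The log2 ratio of Hk2 to Hk1 was 0.24 in BCR-ABL1 line 1 (others 1.18 to 1.36) and -0.532 in MSCV line 1 (others 0.408 to 0.59). The log2 ratio of Slc2a1 to Slc2a3 was -2.88 in BCR-ABL1 line 1 (others -1.86 to -1.75).

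In other lines, Gapdh had 25.7 CPM in MSCV line 3 (others 15.8 to 16.8) and Eno3 46.7 CPM in MSCV line 4 (others 37.7 to 38.3). Slc16a3 had 3.20 CPM in MSCV line 2 (others 1.27 to 1.60), and Pfkfb2 had 11.3 CPM in BCR-ABL1 line 2 (others 12.5 to 12.7).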

How the results depend on the processing

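Counts are given in the order BCR-ABL1 with MSCV, SFPQ-ABL1 with MSCV and SFPQ-ABL1 with BCR-ABL1, where 9, 1 and 9 of the genes described and 5522, 308 and 4471 of all genes were called. No named fold change changed sign. The number of genes lowest in line 1 of every group was 18 with RLE size factors and 17 with library totals alone. A test against a 1.5-fold change called 1, 0 and 1 (all genes 980, 0 and 727), and 0 to 6 genes of each further list. Leaving out 1 line at a time gave 5 to 11, 0 to 3 and 3 to 15; the lowest counts came without BCR-ABL1 line 4, without any of 8 lines for Pdk3, and without SFPQ-ABL1 line 3 or BCR-ABL1 line 2, and the highest in the last comparison without SFPQ-ABL1 line 2. For all genes, leaving out 1 line gave 4474 to 5645, 33 to 467 and 3161 to 5026. In SFPQ-ABL1 against MSCV, DESeq2 gave 1085 and the 8 libraries alone 110. limma-voom and the 8 libraries alone called 0 of the genes described there. Without line 1 of every group the counts were 15, 1 and 14 (all genes in SFPQ-ABL1 against MSCV 110), and without SFPQ-ABL1 line 2 and BCR-ABL1 line 4 they were 7, 3 and 9 (all genes 498 in the second), with Pfkm, Pfkp and Pdk3 no longer called in the first and Pfkfb3 and P4ha1 in the third. RLE size factors also called Gpi1 and Pfkp in the third. Scaling by library totals alone called 2841 genes higher and 1750 lower in SFPQ-ABL1 against BCR-ABL1, instead of 2268 and 2203, and 64.8% higher instead of 45.5% in SFPQ-ABL1 against MSCV. The cause of these differences was not tested.

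Lines share numbers across groups. Deviations of same-numbered lines correlated over 0.1 in 7 of 12 pairs (-0.00632 to 0.385), and a line was most like its own number in 12 of 24 cases. The labels do not state that the numbers pair lines, so the main fit had no term for them. These values do not show that the lines are unpaired. A replicate block gave 18, 3 and 20 calls (all genes 6307, 726 and 5336). It added Pgk1, Slc2a1, Hk2, P4ha1, Egln1, Vegfa and Pgam1 as higher and Tpi1 and Slc16a3 as lower in the first comparison, Pgk1 and Aldoa as lower in the second, and, in the third comparison, Tpi1 as higher and Slc2a1, Eno1, Hk2, Gpi1, Ldha, Bnip3, Egln1, Pfkp, Vegfa and Pgam1 as lower. Of the further lists, it called 20, 4 and 27 other hypoxia response genes, 3 and 11 other glycolysis genes in SFPQ-ABL1 against MSCV and against BCR-ABL1, and 7 transcriptional regulators in SFPQ-ABL1 against BCR-ABL1. The block with look-alike counts added gave 18, 2 and 21 (all genes in the second 728). The number term was called for 116 of 17197 genes and 7 of the 32.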
